A study of Mus musculus with 8 samples.

Results

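The 3 control mammary glands of this series, of 8 glands sequenced in all, give the baseline transcriptome of the tissue: which genes its RNA is made of, how its counts divide among fat, epithelium, muscle, immune cells and stroma, and how far 1 gland lies from the next. They were taken by their label, treatment "control", and no other group was compared with them. They are abdominal mammary glands of female C57BL/6 mice, injected with sEV-CTRL, a small extracellular vesicle preparation made from non-conditioned medium, so the controls are injected glands and not untouched ones. The labels give no animal, age, cycle stage, time or batch for a gland. The study describes its sequenced glands as exposed to the vesicles for a set number of weeks, with animals as replicates. RNA of lysed whole gland was extracted with the Direct-zol kit, and polyA RNA was made into libraries with the Lexogen Sense kit (V2) from 300 ng of RNA with 13 cycles of PCR. The deposited values are whole-number counts per gene, with totals of 19971458, 21932810 and 18194996 for control glands 1, 2 and 3, and 18674 to 19088 genes with more than 3 counts per gland. The glands are called 1 to 3 by the number in their labels, which sets no order among them.

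The resting mammary gland is a fat pad crossed by a thin tree of epithelial ducts. The ducts have an inner luminal layer, part of which senses estrogen, progesterone and prolactin through their receptors, and an outer basal layer of contractile myoepithelial cells. Fibroblasts, vessels, nerves and resident immune cells lie between adipocytes and ducts, a lymph node sits within the inguinal fat pad of the mouse, and the gland lies between the skin and the muscle of the body wall. In RNA of a whole gland, more cells of a type and more RNA per cell cannot be told apart.

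The counts were spread over many genes. The most abundant 10 genes of each gland held 10.8%, 10.8% and 13.9% of its counts in glands 1, 2 and 3, and 679, 758 and 626 genes were needed to reach 50%. By the mean over glands 709 genes held 50% of the counts, and 17 genes stood among the 25 most abundant of every gland. These shares are of reads, which grow with transcript length, so levels of different genes are compared only as TPM (counts divided by the length of the union of a gene's exons and scaled to a sum of 1000000).

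Adipocyte genes, nuclear copies of mitochondrial genes and genes of protein synthesis made up most of the 25 genes with the highest share of counts. Scd1, the desaturase that makes monounsaturated fatty acids, held 1.60%, 1.17% and 2.81% of the counts in glands 1, 2 and 3 (mean 1.86% ± 0.852, SD, n = 3). Car3, a carbonic anhydrase abundant in adipocytes, held 0.966%, 1.53% and 1.36%. The shares of Scd1 and Car3 thus ordered the glands differently, with Scd1 lowest and Car3 highest in gland 2. Lpl, the lipase that frees fatty acids from circulating triglyceride, held 0.472% ± 0.0820 of the counts, Cd36, a fatty acid transporter, 0.394% ± 0.0830, and Fabp4, the fatty acid binding protein of adipocytes, 0.356% ± 0.0824 (means ± SD, n = 3). Cav1, which builds the membrane pits called caveolae, was the 24th at 0.247% ± 0.0546. Outside fat, the elongation factor Eef1a1 held 0.839% ± 0.135, the class I light chain B2m 0.811% ± 0.0349, the iron store Fth1 0.337% ± 0.0580 and the selenium carrier Selenop 0.301% ± 0.0679. Of these 4 genes, B2m was the most even, at 0.784%, 0.851% and 0.799% in glands 1, 2 and 3. Ribosomal proteins gave 4 of the 25 genes (Rps24, Rps3a1, Rps12 and Rpl26), and Tpt1 and the actin-binding Tmsb4x held 0.278% and 0.251%. Gm42418, annotated as a long noncoding RNA, held 0.313%, 0.339% and 0.549% in glands 1, 2 and 3. The immunoglobulin kappa constant gene Igkc stood apart among the 25, at 0.637% in gland 1 against 0.118% and 0.168% in glands 2 and 3.

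**Figure D1:**
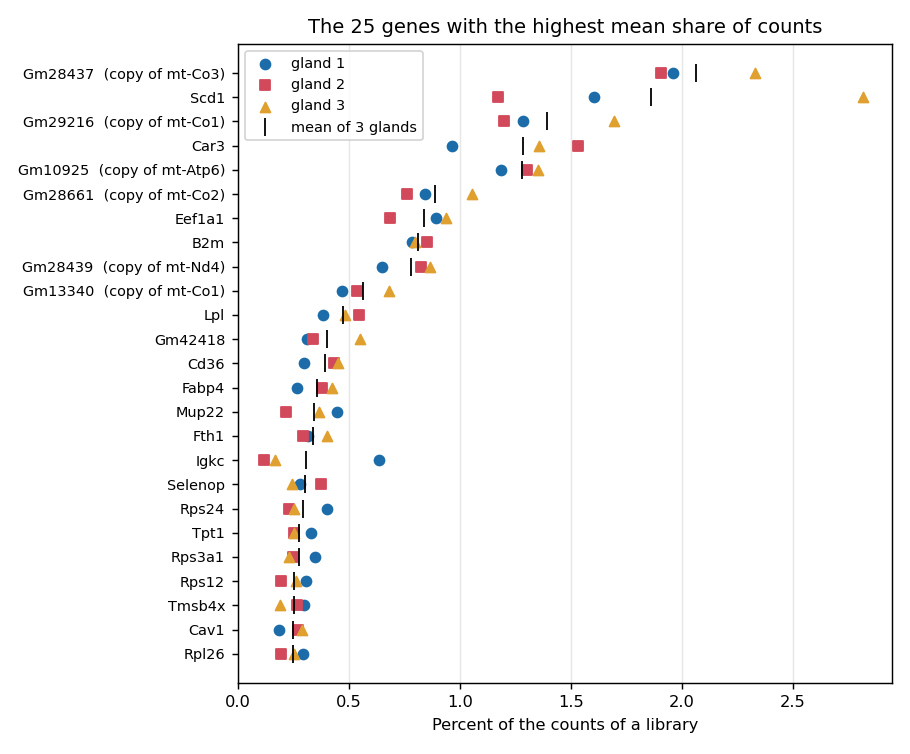
Percent of the counts of each control library (x axis) in the 25 genes with the highest mean share (y axis), with a symbol for each gland and a black tick for the mean. Scd1 reaches 2.81% in gland 3, Igkc lies at 0.637% in gland 1 and under 0.2% in the others, and 6 of the 25 are nuclear copies of mitochondrial transcripts.

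Per length, the order changed. Without the copies of mitochondrial transcripts, B2m had the highest level at 19968, 24269 and 20299 TPM in glands 1, 2 and 3. Igkc was next with 26227, 5437 and 6895 TPM, so its mean of 12853 TPM rested mostly on gland 1. Rpl38-ps2, a processed pseudogene of a ribosomal protein whose reads cannot be told from those of its parent gene, was the third with a mean of 10884 TPM. Car3 had 10277 ± 2862 TPM, the major urinary protein Mup22 8933 ± 2593 and Scd1 8542 ± 3548 (means ± SD, n = 3). Mup22 is a small lipocalin that carries hydrophobic ligands, and 15 other genes share long near-identical stretches with it, so the split of reads among them is uncertain. The major urinary protein genes together held 0.511%, 0.242% and 0.416% of the counts in glands 1, 2 and 3. Cfd (adipsin, a serine protease that fat secretes) had 4758 ± 712 TPM and Retnla, a resistin-like protein, 5302 ± 1437.

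The table holds no gene of the mitochondrial chromosome, and yet mitochondrial sequence made up a large part of the counts, under the names of 11 nuclear pseudogenes. Each of these carries a stretch of at least 200 bases that is at least 95% identical to a mitochondrial transcript. They held 6.68%, 6.84% and 8.32% of the counts in glands 1, 2 and 3 (7.28% ± 0.905), which is more than the fat marker genes together, and 246448 ± 26607 TPM. Of the 11, 7 lie next to each other on the minus strand of chromosome 1 (GRCm38). Gm28437, at chr1:24613189-24613971, was the gene with the highest share of counts of the whole table, at 1.96%, 1.91% and 2.33%, and all 783 bases of its transcript are those of mt-Co3, a subunit of cytochrome c oxidase. Gm29216 (a copy of mt-Co1) held 1.39% ± 0.265, Gm10925 (mt-Atp6) 1.28% ± 0.0849 and Gm28661 (mt-Co2) 0.887% ± 0.151 of the counts. Gm28439 (mt-Nd4) held 0.780% ± 0.114, and Gm28438 (mt-Nd3) had 11534 ± 2641 TPM. Gm13340 on chromosome 2 is a copy of mt-Co1, with 37 differing bases in 1545, and held 0.469%, 0.538% and 0.683%. The first 90 bases of the first pair, in GENCODE's transcripts, are the same letter for letter, so reads of the pair cannot be told apart, and a stretch of the second pair (positions 445 to 534) shows, in capitals, the 5 bases that differ there.
Gm28437: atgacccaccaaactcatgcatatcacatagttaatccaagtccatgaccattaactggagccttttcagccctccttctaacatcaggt
mt-Co3: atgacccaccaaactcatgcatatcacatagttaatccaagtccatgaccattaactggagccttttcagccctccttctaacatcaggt
Gm13340: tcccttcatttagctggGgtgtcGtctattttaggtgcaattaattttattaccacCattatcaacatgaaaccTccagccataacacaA
mt-Co1: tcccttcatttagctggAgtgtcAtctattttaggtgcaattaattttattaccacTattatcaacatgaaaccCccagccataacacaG

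Nuclear genes of oxidative phosphorylation were, like the copies, highest in gland 3. The 93 nuclear subunit genes held 1.36%, 1.26% and 1.54% of the counts, and 61 of the 91 with enough counts were highest in gland 3. Of all 15406 genes with enough counts, 4760, 5545 and 5101 were highest in glands 1, 2 and 3. Ribosomal protein genes held 8.47%, 5.54% and 6.95%, and 71 of 84 were highest in gland 1 (68 when scaled by total counts). The highest gland therefore differed between these classes.

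By the mean over glands, fat markers held the largest share of the 5 compartments and epithelial markers the smallest, an order that turned in some glands and settings. Each compartment was measured as the percent of a library's counts in a list of marker genes, which counts only the listed genes and is not a share of cells. The 40 fat genes held 4.71%, 5.04% and 7.29% in glands 1, 2 and 3 (5.68% ± 1.40, SD, n = 3). The 87 immune genes held 2.83%, 1.01% and 1.34% (1.73% ± 0.968). The 56 stroma genes held 0.884%, 1.31% and 1.03% (1.07% ± 0.219). The 44 muscle genes held 0.103%, 1.45% and 0.357% (0.638% ± 0.718), and without gland 2 their mean was 0.230%. The 39 epithelial genes held 0.214%, 0.319% and 0.264% (0.266% ± 0.0526). Counting error is far smaller than these gaps: the 95% exact Clopper-Pearson interval of the epithelial share was 0.212% to 0.216% in gland 1 and 0.317% to 0.321% in gland 2. So fat was highest in gland 3, immune in gland 1, and muscle, stroma and epithelium in gland 2, and the ratio of the highest to the lowest gland ran from 1.49 for stroma and epithelium to 14.2 for muscle. The muscle share was under the epithelial share in gland 1, and also in the mean without gland 2 (0.230% against 0.239%). When the defining genes alone were summed, immune genes stood above fat genes in the mean (0.734% against 0.614%) and in gland 1 (1.24% against 0.458%). In gland 2 they stood below (0.416% against 0.630%), as in gland 3 (0.548% against 0.753%). Per length, all listed immune genes also stood above the fat genes in gland 1 (50879 against 29546 TPM). Both immune sums rest largely on 1 antibody gene, Igkc. It alone had 26227 TPM and 0.637% of the counts in gland 1, and 0.308% of the counts in the mean. The 5 lists together held 8.74%, 9.14% and 10.3% of the counts.

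**Figure D2:**
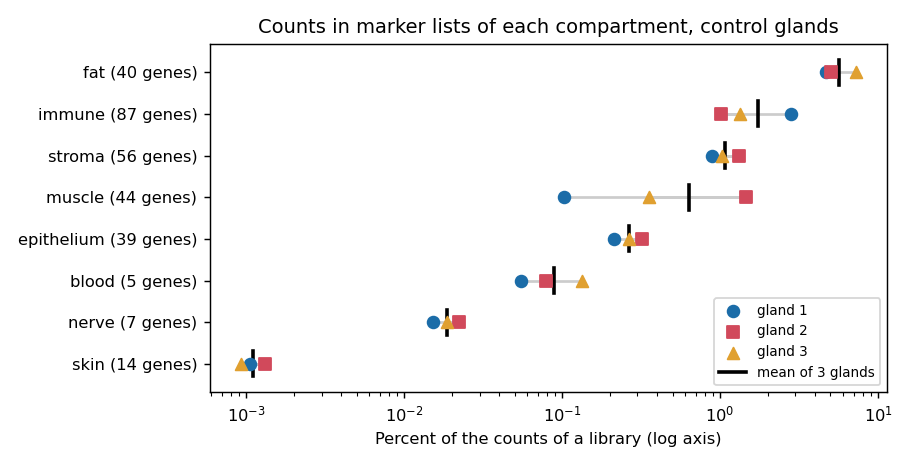
Percent of the counts of each control library (x axis, log axis) in the marker lists of 8 compartments (y axis), with a symbol for each gland and a black tick for the mean. Muscle has the widest range, from 0.103% in gland 1 to 1.45% in gland 2, and skin markers stay near 0.001% in all 3 glands.

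Markers of neighbouring tissues set the borders of what was dissected. The 14 skin and hair genes held 0.00105%, 0.00132% and 0.000923% of the counts, and 8 of them had at most 3 counts in every gland, among them the keratin Krt1 at 0 in all. Lor, which makes the cornified envelope, had 1, 0 and 0 counts. The leading members were not absent: the keratin Krt10 had 147, 196 and 99 counts and Sbsn 49, 79 and 47. The 7 Schwann cell and myelin genes held 0.0153%, 0.0222% and 0.0188%, and the 5 red cell genes 0.0549%, 0.0787% and 0.133%, with all 5 highest in gland 3. Xist, which coats the silent X chromosome of females, had 1852, 2246 and 1989 CPM (counts scaled to 1000000 per library with TMM factors), and 4 genes of the Y chromosome had 0 counts in all 3 glands.

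Gland-to-gland spread was measured gene by gene. Of 15406 genes with enough counts in all 3 glands, 2840 (18.4%) had a CPM in their highest gland at least 2 times that in their lowest, and the median ratio was 1.50. Ratios were taken with a prior count of 2 added to each gene. That share is the background for each list that follows. For the gland where a gene was highest, the background over the 15406 genes was 4760, 5545 and 5101 in glands 1, 2 and 3. For the lowest gland it was 4793, 5695 and 4918. Of the 2840 genes, 1236 were highest in gland 2, 860 in gland 1 and 744 in gland 3. Without gland 1, 2 or 3 in turn, 1505, 1063 and 1833 genes were 2-fold apart between the remaining pair. These were 9.53% of 15798, 6.79% of 15651 and 11.6% of 15768 genes tested. Where a list is read without a gland, its background is that share. A short list with no member past 2-fold is close to such a share. The common biological coefficient of variation, edgeR's measure of spread beyond counting error, was 0.298, and 0.250 without gland 2. Log2 CPM correlated across genes at a Pearson r of 0.95 between glands 1 and 2, 0.97 between 1 and 3 and 0.96 between 2 and 3. Genes 2-fold apart numbered 1773, 1046 and 1431 for these pairs, so glands 1 and 3 were the closest.

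**Figure D3:**
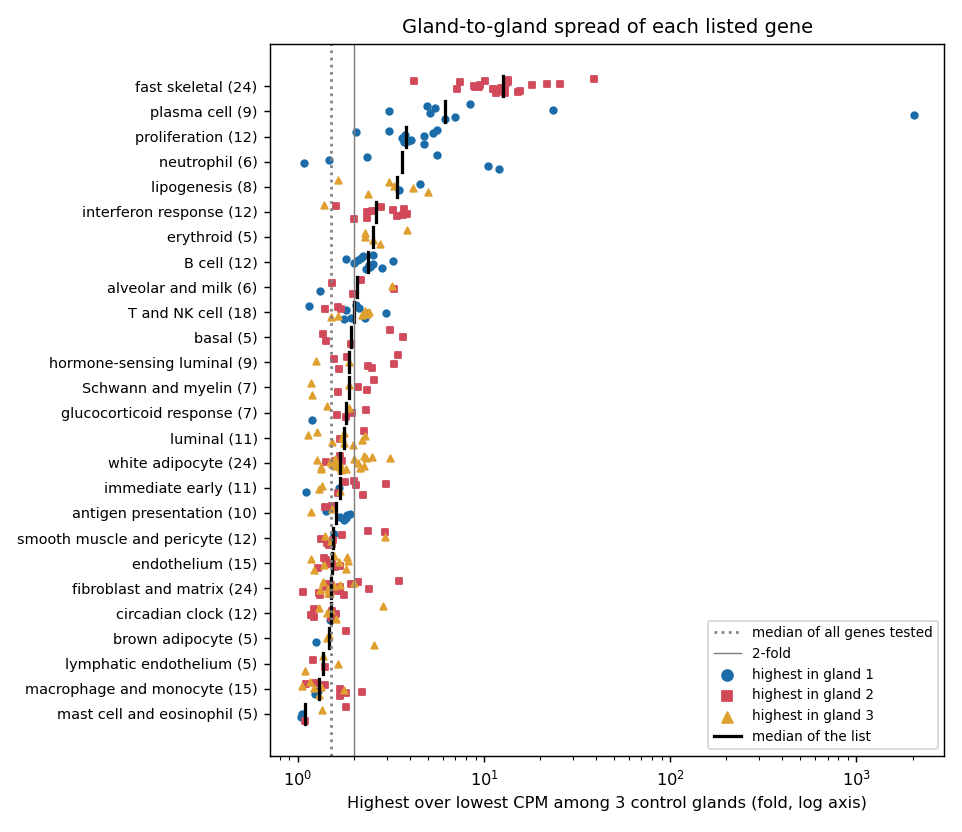
Ratio of the highest to the lowest CPM among the 3 control glands (x axis, fold, log axis) for each gene with enough counts in each list shown (y axis, number of genes in brackets), with the color and shape for the gland where the gene is highest. Lists with few such genes are left out. Black ticks are list medians, the dotted line is the median of all genes tested (1.50) and the solid line is 2-fold, and fast skeletal muscle (median 12.6) and plasma cell genes (6.16) lie farthest out, mast cell genes (1.09) closest to 1.

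Fast skeletal muscle genes had the highest median ratio of the lists with more than 1 gene with enough counts. All 24 with enough counts were more than 2-fold apart and highest in gland 2, lowest in gland 1, with a median ratio of 12.6. The other 3 of the 27 listed, Myh1, Myh2 and Mb, had too few counts in glands 1 and 3. Myh4, the heavy chain of fast glycolytic fibers, had 183, 2133 and 633 CPM in glands 1, 2 and 3. Acta1, skeletal actin, had 113, 1467 and 482 CPM, and Ckm, the muscle creatine kinase, 71.9, 674 and 293. The calcium pump Atp2a1 had 66.0, 741 and 262 CPM and troponin Tnnt3 64.0, 1001 and 224. Gland 3 therefore lay between the others and was itself above gland 1 by more than 2-fold for all 24 genes when gland 2 was left out. For that pair, 6.79% of all genes tested were 2-fold apart. The ratio was not the same for every gene: it was 9.37 for Ckm, 21.7 for the giant filament protein Neb, 25.5 for titin (Ttn) and 39.0 for Xirp2, an actin-binding protein of striated muscle. Summed per length, the fast list stood at 964, 13881 and 3287 TPM.

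The mix of myosin genes differed as well. Among the reads of the 4 adult myosin heavy chains, Myh4 held 99.7% in gland 1 and 99.6% in gland 3 but 82.2% in gland 2. Myh1, of the intermediate fast fibers, had 1, 7993 and 34 counts, which is 14.1% of the myosin reads in gland 2 (95% exact interval 13.8% to 14.4%) and 0.292% in gland 3 (0.202% to 0.408%). Myh2, of fast oxidative fibers, had 7, 1676 and 11 counts, and Myh7, of slow fibers, 2, 439 and 0. Gland 3 had 11604 counts of Myh4. Of the 10 slow-fiber genes, 9 had at most 9 counts in glands 1 and 3 and at least 75 in gland 2: the regulatory light chain Myl2 had 0, 520 and 5 counts, slow troponin Tnnt1 9, 377 and 5, and the Z-disc protein Myoz2 0, 385 and 0. The exception was Casq2, a calcium store protein and the only slow-fiber gene with enough counts in every gland, with 14, 111 and 38 counts. Myoglobin (Mb), the oxygen store of oxidative fibers, had 5, 1103 and 17 counts. Heart muscle markers were at or near 0, with 0, 5 and 0 counts of Myh6 and 0 in all glands of Nppa. Mybpc1, the slow-type myosin binding protein, was among the 10 genes with the largest ratio of those with enough counts in every gland and a mean CPM of at least 20, with 2.13, 157 and 9.55 CPM. Myf6, a regulator kept on in mature fibers, had 15, 284 and 32 counts, whereas Myog, which marks muscle cells as they form, had 1, 1 and 0.

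**Figure D4:**
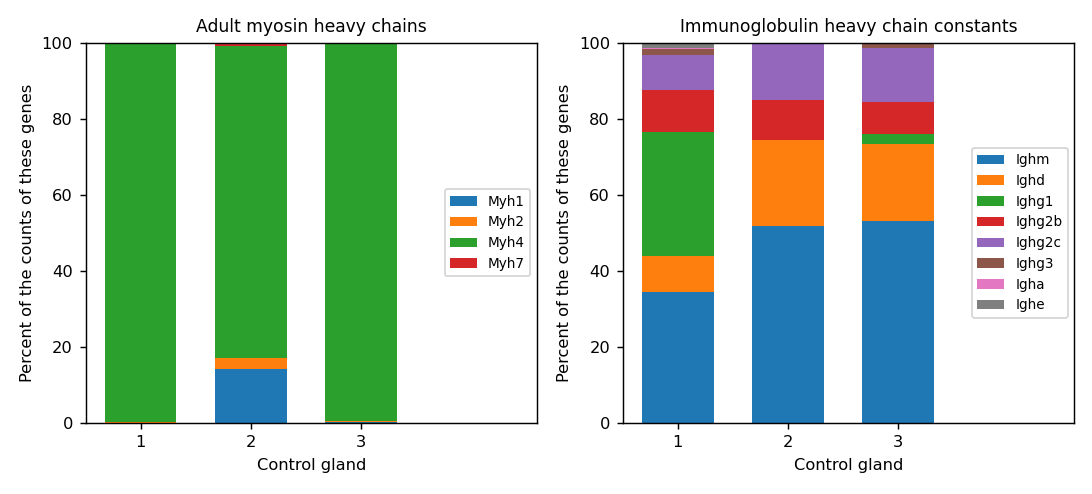
Percent of the counts (y axis) of the 4 adult myosin heavy chain genes (left) and the 8 immunoglobulin heavy chain constant genes (right) in each control gland (x axis), stacked by gene. Myh4 makes up 99.7% in gland 1 but 82.2% in gland 2, and Ighg1 makes up 32.4% in gland 1 but 0.0730% in gland 2.

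The promoters of the fast skeletal genes were read for short motifs because these genes move together across glands. RefSeq promoters of 300 bases (GRCm38.p6) were given for 21 of the 27 genes, 25 promoters in all. CAGCTG, the E-box form bound by myogenic factors, was in 13 of the 25 (52.0%), against 16.3% of all 32851 promoters, on either strand. The looser CANNTG, which contains it, was in 76.0% against 72.3%. The other motifs searched were TATAAA in 20% against 13.6%, CCAAT in 40.0% against 37.4%, CCCCGCCCC in 12% against 11.4%, TATTTATA in 8% against 1.70%, and ATGCAAAT, TCACCCCAC and TGACCTTTG in none of the 25. In promoters of the other lists searched, CAGCTG was in 0% (lipogenesis) to 30.4% (white adipocyte). The 250 bases before the start of Acta1 and Myh4 hold 1 CAGCTG each, shown in capitals. These are matches of letters and not measured binding.
Acta1, chr8:123894776-123895025, minus strand: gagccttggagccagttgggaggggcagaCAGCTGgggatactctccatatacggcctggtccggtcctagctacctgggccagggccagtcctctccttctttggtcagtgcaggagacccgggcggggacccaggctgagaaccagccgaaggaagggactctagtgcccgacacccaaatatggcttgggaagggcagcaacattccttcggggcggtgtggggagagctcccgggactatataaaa
Myh4, chr11:67237562-67237811, plus strand: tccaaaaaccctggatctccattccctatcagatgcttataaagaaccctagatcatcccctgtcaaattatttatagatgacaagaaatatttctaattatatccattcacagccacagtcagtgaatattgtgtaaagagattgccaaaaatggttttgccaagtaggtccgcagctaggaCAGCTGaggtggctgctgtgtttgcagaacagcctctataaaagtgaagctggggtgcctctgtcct

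Immune genes differed between glands by lineage. The 9 plasma cell genes were all more than 2-fold apart and all highest in gland 1, with a median ratio of 6.16. Igkc had 6439, 1183 and 1667 CPM, Jchain, which joins secreted IgM and IgA, 1220, 255 and 198, and Mzb1, a chaperone of antibody assembly, 98.5, 11.7 and 13.2 (57.2% of its exons overlap another gene). B cell genes were likewise highest in gland 1 for all 12, 10 of them by more than 2-fold over the lowest gland, with a median ratio of 2.37. Cd79a, a signalling chain of the B cell receptor, had 162, 69.8 and 104 CPM, and Ms4a1 (CD20) 737, 384 and 305. Without gland 1, no B cell gene was 2-fold apart, against 9.53% of all genes tested. Of the 9 plasma cell genes 3 still were, and of all immunoglobulin genes 48 of 102 (47.1%). The median ratio was thus larger for the plasma cell list than for the B cell list, a difference that was not tested.

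The classes of antibody gene differed as well. Ighg1, the constant gene of IgG1, had 62794, 32 and 1332 counts, a ratio of 2032 between glands 1 and 2 that was the largest of any gene with enough counts in every gland and a mean CPM of at least 20. It made up 32.4% of the heavy chain constant reads in gland 1, 0.0730% in gland 2 and 2.67% in gland 3. Ighe, of IgE, had 2849, 12 and 21 counts and Ighg3 3255, 152 and 565. The other classes kept closer shares than Ighg1 and Ighe. Ighm made up 34.3%, 51.7% and 53.2%, Ighg2c 9.14%, 14.5% and 14.1%, and Ighg2b 11.2%, 10.7% and 8.42%. Ighd and Igha were less even, at 9.67%, 22.6% and 20.2% and at 0.143%, 0.0958% and 0.294%. The variable segments also differed by gland. The leading kappa segment was Igkv1-110 in gland 1 (12.6% of kappa variable reads), Igkv6-23 in gland 2 (13.0%) and Igkv5-39 in gland 3 (13.8%), and the leader of gland 2 made up 2.71% in gland 1 and 0.573% in gland 3. Ighv3-6 made up 66.0% of the heavy variable reads in gland 2 but 6.44% and 10.9% in glands 1 and 3. Variable segments are similar to one another, so the split of reads among them is uncertain.

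T and NK cell genes were closer, with 9 of 18 more than 2-fold apart and 14 of 18 lowest in gland 2. The T cell receptor chain Trac had 140, 61.5 and 145 CPM and the co-receptor chain Cd3e 58.6, 33.2 and 58.4. Macrophage genes were even: 1 of 15 was 2-fold apart, less than the background share, with 92.1, 85.5 and 110 CPM for Csf1r, the receptor that macrophages live on, 51.5, 41.6 and 49.2 for Cd68, and 1158, 901 and 1118 for the lysozyme Lyz2. None of the 10 antigen presentation genes was 2-fold apart, and the class II chain H2-Aa had 1617, 911 and 1287 CPM. Mast cell genes were the most even list, with a median ratio of 1.09. Carboxypeptidase Cpa3 had 63.4, 66.8 and 61.2 CPM, and the chymases Cma1 and Mcpt4 56.4, 56.1 and 54.3 and 73.7, 69.7 and 71.3. Neutrophil markers were scarce: S100a8 and S100a9, the calprotectin chains, had 27.0, 2.15 and 11.0 CPM and 23.1, 2.10 and 11.0 CPM, and Ly6g had 1, 6 and 1 counts. The neutrophil receptors Csf3r (7.03, 6.50 and 6.77 CPM) and Cxcr2 (15.4, 10.4 and 14.5 CPM) varied less than S100a8. Markers of lymph node stroma were present in every gland, with 533, 308 and 334 CPM of the B cell attractant Cxcl13 and 217, 110 and 240 of Ccl21a, which has near-identical copies. Whether a lymph node was in the sample is not stated in the sources used here, and the part of that tissue in the immune shares was not tested.

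Genes of dividing cells were highest in gland 1 throughout. All 12 proliferation genes were more than 2-fold apart, with a median ratio of 3.82. Without gland 1 none was, against 9.53% of all genes tested. Mki67, which coats mitotic chromosomes, had 329, 69.4 and 76.4 CPM, and the nucleotide reductase subunit Rrm2 87.5, 15.8 and 15.6. Topoisomerase Top2a had 63.9, 17.2 and 18.5 CPM and cyclin Ccna2 54.5, 17.8 and 14.5. Which cells divided was not measured. Of 10 promoters given for these genes, 9 hold CCAAT on either strand (90%, against 37.4% of all promoters), 2 hold CAGCTG and none holds TATAAA. In promoters of the other lists searched, CCAAT was in 26.1% (white adipocyte) to 60% (lipogenesis). The 250 bases before the start of Top2a hold 6 matches and those of Ccnb2, a mitotic cyclin with 28.8, 7.92 and 9.28 CPM, hold 3, shown in capitals (ATTGG is the same motif on the other strand).
Top2a, chr11:99024190-99024439, minus strand: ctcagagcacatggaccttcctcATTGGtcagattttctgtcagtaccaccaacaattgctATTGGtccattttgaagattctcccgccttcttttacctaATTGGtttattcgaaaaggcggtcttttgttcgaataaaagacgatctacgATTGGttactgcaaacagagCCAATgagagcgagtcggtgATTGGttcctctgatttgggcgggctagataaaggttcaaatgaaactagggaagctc
Ccnb2, chr9:70421555-70421804, minus strand: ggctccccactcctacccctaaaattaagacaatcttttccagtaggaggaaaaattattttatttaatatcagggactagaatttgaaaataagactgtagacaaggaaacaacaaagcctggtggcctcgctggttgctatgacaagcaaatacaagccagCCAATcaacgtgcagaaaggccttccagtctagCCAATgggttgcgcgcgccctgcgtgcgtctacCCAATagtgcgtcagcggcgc

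**Figure D5:**
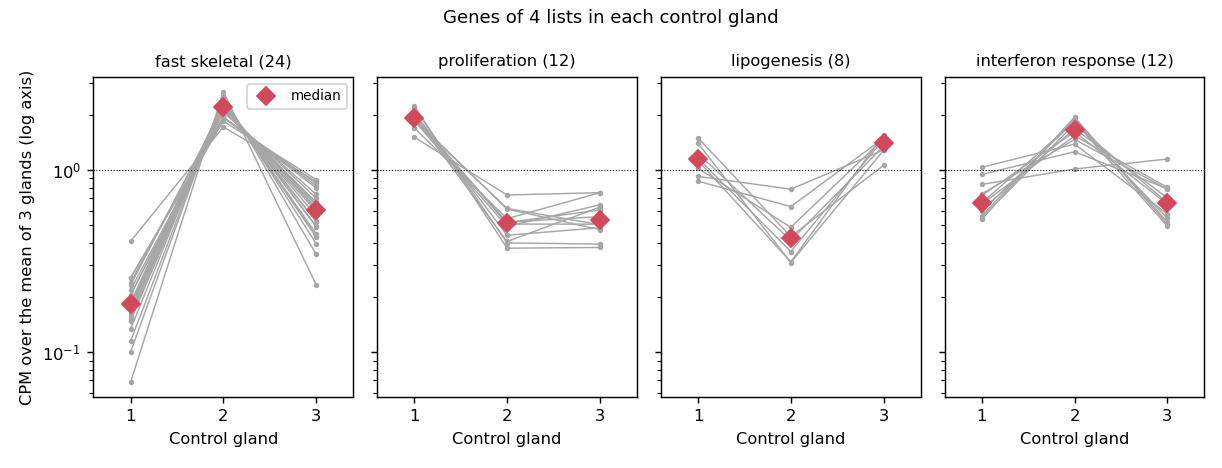
CPM in each control gland over the mean of the 3 glands (y axis, log axis) for each gene (gray points, with lines that join the points of a gene and mean no order of glands) of 4 lists, with the list median as a red diamond. Fast skeletal genes are highest in gland 2, proliferation genes in gland 1, lipogenesis genes are lowest in gland 2, and interferon response genes are highest in gland 2 for 11 of 12.

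White adipocyte genes were steadier than lipogenesis genes, but more spread than all genes tested. Of 24 white adipocyte genes, 20 were highest in gland 3 and 8 were 2-fold apart (33.3%, against 18.4% of all genes). Their median ratio was 1.69, against 1.50 for all genes. Without gland 3, none of the 24 was 2-fold apart, against 11.6% of all genes tested. Without gland 1 or gland 2, 4 of the 24 were (16.7%, against 9.53% and 6.79%). Adipoq (adiponectin) had 922, 1252 and 1578 CPM, Plin1, which coats the lipid droplet, 670, 844 and 888, Cidec, which fuses droplets, 312, 378 and 706, and the hormone leptin (Lep) 41.1, 51.4 and 74.8. Of the 24, 17 were lowest in gland 1 and 7 in gland 2. The 8 lipogenesis genes, which build fatty acids, were instead all lowest in gland 2, 7 of them by 2-fold or more, with a median ratio of 3.39. Fatty acid synthase Fasn had 1322, 368 and 1826 CPM, the malic enzyme Me1 906, 302 and 995, and the lipogenic regulator Thrsp 698, 331 and 1015. Without gland 2, none of the 8 was 2-fold apart, against 6.79% of all genes tested. Scd1 had 16217, 11756 and 27954 CPM, so gland 3 alone lay far above the others for this gene. Of the 8 brown fat genes, 5 had enough counts. Ucp1, which lets mitochondria make heat, had 4, 0 and 0 counts (a count of 0 allows up to 3, counting error only), Elovl3 had 2, 0 and 0, and Zic1 1, 44 and 1. Cidea had 4.56, 3.07 and 8.02 CPM, and regulators that other cells also use were present in every gland, with 164, 332 and 163 counts of Ppargc1a and 107, 164 and 147 of Prdm16. Otop1, a proton channel, had 81, 83 and 101 counts.

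Epithelial genes were present in every gland at low level, and subtypes differed in order. Luminal keratins Krt8 and Krt18 had 48.1, 62.7 and 94.6 CPM and 87.8, 132 and 154 CPM, the adhesion protein Epcam 63.4, 106 and 86.5, and 9 of 11 luminal genes were highest in gland 3. Hormone-sensing genes were instead highest in gland 2 for 7 of 9 and lowest in gland 1 for all 9. The estrogen receptor Esr1 had 72.5, 121 and 73.9 CPM, the progesterone receptor Pgr 46.8, 117 and 55.8, the growth factor Areg 24.2, 79.5 and 27.7, and the prolactin receptor Prlr 484, 1150 and 635. Without gland 2, none of the 9 was 2-fold apart, against 6.79% of all genes tested. Prlr is also made by adipocytes, and it held most of the reads of its list. The epithelial share without it was 0.190%. That share still holds Glycam1, which is not particular to epithelium either, with a mean of 747 CPM against 756 for Prlr. The luminal factor Foxa1, which opens chromatin for hormone receptors, had 35.7, 55.8 and 45.7 CPM.

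All 5 basal genes with enough counts were highest in gland 2: Trp63, the master factor of basal cells, had 9.62, 35.5 and 18.1 CPM, the keratin Krt5 6.63, 12.9 and 9.83, and the oxytocin receptor Oxtr 45.8, 62.5 and 53.8. Most genes of milk proteins were at or near 0, but not Csn3 (kappa-casein), with 81.9, 163 and 91.8 CPM. Wap had 0 counts in every gland, the casein Csn2 5, 23 and 4, and the lactose subunit Lalba 5, 8 and 13. Elf5, the factor of alveolar progenitors, had 12.6, 41.8 and 21.7 CPM, a ratio of 3.30 with gland 2 highest. Glycam1, a mucin-like protein of milk that lymph node vessels also make, had 829, 633 and 781 CPM and made up most of the alveolar list, which summed to 0.0991%, 0.0927% and 0.101% of the counts. The members were less even than the sum: of the 6 with enough counts, 3 were 2-fold apart (Elf5, Ltf and Btn1a1) and 4 were highest in gland 2.

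Stroma was close to the background of all genes. Of 56 genes, 7 (12.5%) were 2-fold apart. Among 24 fibroblast and matrix genes, 16 were highest in gland 2 and none in gland 1: the proteoglycan Dcn had 1642, 2749 and 1665 CPM, the collagens Col3a1 and Col1a1 943, 1398 and 936 and 243, 305 and 232, and Pdgfra, the growth factor receptor of fibroblasts, 91.0, 150 and 88.9. The gene with the widest ratio of the list was Postn, a matrix protein of remodeling tissue, with 205, 720 and 311 CPM (a ratio of 3.50). No endothelial gene of 15 and no lymphatic gene of 5 was 2-fold apart. Pecam1 (CD31) had 255, 243 and 298 CPM, Cdh5, which joins endothelial cells, 99.2, 138 and 181, the VEGF receptor Kdr 99.7, 123 and 96.6, and the lymphatic factor Prox1 16.1, 15.4 and 16.7. Smooth muscle and pericyte genes had 3 of 12 past 2-fold, with 187, 275 and 241 CPM of the actin Acta2 and 287, 385 and 327 of Rgs5.

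Response programs differed by gland as well. Interferon response genes were highest in gland 2 for 11 of 12, and 9 were 2-fold apart, with a median ratio of 2.63. Ifit3 had 32.0, 116 and 30.1 CPM, Oasl2 40.0, 89.4 and 35.8, and Irf7, the regulator of the response, 54.7, 109 and 58.2. Without gland 2, none of the 12 was, against 6.79% of all genes tested. Of the immediate early genes, which tissue handling can induce, 3 of 11 were 2-fold apart, and the phosphatase Dusp1 had 25.3, 74.8 and 34.1 CPM. Clock genes were near the background, with 1 of 12 past 2-fold and a median ratio of 1.50, as over all genes. Nr1d1 had 66.9, 57.1 and 82.2 CPM and Clock 76.9, 123 and 86.9. Glucocorticoid targets had 1 of 7 past 2-fold but a median ratio of 1.81, with 54.1, 45.3 and 47.2 CPM for Fkbp5. Gland 2 thus stood apart for interferon, hormone-sensing and lipogenesis genes, and gland 1 for B cell and proliferation genes. Muscle genes were highest in gland 2 and plasma cell genes in gland 1. Fast muscle genes and part of the antibody genes also differed between the remaining pair of glands. Whether these groups share a source was not tested, and the labels name no batch that could be compared.

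The extremes of the table were as follows. The 10 genes with the largest ratio among 7449 with enough counts in every gland and a mean CPM of at least 20 were 5 immunoglobulin genes, 4 genes of skeletal muscle (Mybpc1, Xirp2, Klhl41 and the calcium release protein Trdn) and Slpi, an inhibitor of leukocyte proteases, with 208, 7.41 and 14.1 CPM. Myh1 and Myh2 also had a mean CPM of at least 20 (123 and 25.9) but too few counts in glands 1 and 3 to be among the 7449. The steadiest were Coa5, an assembly factor of cytochrome c oxidase, with 287, 289 and 288 CPM, the translation regulator Larp1 with 75.1, 75.1 and 75.8, and the kinase complex subunit Rictor with 93.1, 92.2 and 92.5, followed by 2010111I01Rik and Limd1. Of 104 genes at least 10-fold apart, 77 were highest in gland 2, 26 in gland 1 and 1 in gland 3.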

How the data were processed

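Whole-gland polyA RNA of 3 control mammary glands was analyzed. Reads were mapped to mm10 (STAR) and RSEM 1.2.12 was run on Ensembl release 89 genes by the authors. The deposited values are its estimated counts, as whole numbers and without normalization. How they became whole numbers is not given in the sources used here. Symbols, positions and lengths came from GENCODE M21 (51596 of 51789 genes matched), and promoters from RefSeq (GRCm38.p6). Copies of mitochondrial transcripts were found with blastn 2.17.0. TPM used the union of exons, which overstates the length of some short transcripts.

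Counts were scaled in R 4.3.3 with edgeR 4.0.16 (TMM, filterByExpr with a minimum count of 10, which needs counts in all 3 glands and so leaves out genes seen in 1 gland, prior count of 2 in ratios). DESeq2 1.42.0 size factors, other filters and prior counts, TPM, lists without their top gene and each gland left out were the alternatives. The spread estimate was tested on simulated data. No test between glands was made, because the glands are of 1 group, and spread is given over 3 glands (SD). Intervals cover counting error only. No pair of glands was close enough to be a duplicate (chi-square per degree of freedom of 66.7 to 111).

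Of 353 listed marker genes, 352 were found. Members and lists were chosen with earlier results of these data known. Named are the 25 genes with the highest share of counts, the 10 highest per length, up to 4 leading and the defining members of each list, and the 10 most and 5 least variable genes with a mean CPM of at least 20. Myh1, Myh2, Mb, Mzb1, Ighg2b, Ighg3, Areg, Postn, Ccnb2, Casq2, Zic1, Btn1a1, Cfd, Retnla, the immunoglobulin segments and the genes seen in 1 gland were named after their values were seen. Trbc, Hba, Hbb, Lyz and Mup genes share reads with near-identical copies and are uncertain, and genes that overlap another may hold its reads. TPM could be compared between genes only as far as their lengths hold.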

Additional observations from a re-analysis of the deposited data

How the results depend on the processing

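With 3 glands of 1 group, every result here is a description. The muscle share was the most dependent on 1 gland, at 0.230% without gland 2 and 0.906% without gland 1. Leaving out each gland in turn gave 4.88% to 6.17% for fat, 0.239% to 0.291% for epithelium, 1.18% to 2.09% for immune, 0.955% to 1.17% for stroma, 23 to 24 shared genes of the 25 most abundant, 664 to 738 genes with 50% of the counts, 1063 to 1833 genes 2-fold apart and a coefficient of variation of 0.250 to 0.328. As a share of TPM, fat was 3.75%, epithelium 0.190%, immune 2.96% and stroma 0.549%, 16 of the 25 genes were shared, and 93 genes held 50%. TPM without the copies of mitochondrial transcripts gave 3.89% for immune and 0.730% for stroma. With the length of the principal transcript, chosen after seeing the data like the setting before it, fat was 4.13% and stroma 0.651%. Without the top gene of each list, fat was 3.82% and epithelium 0.190%. The defining genes alone gave 0.614% for fat, 0.136% for epithelium, 0.734% for immune and 0.471% for stroma. With no filter on low counts 8645 genes were 2-fold apart. In each of these settings that kept all 3 glands, the highest gland of a compartment stayed the same. Size factors or total counts in place of TMM moved the 2-fold count to 2844 and 2843. No paired analysis was possible because 1 group alone was described and no test was run.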

Other observations

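Genes seen in 1 gland only lie outside the spread counts, because the filter needs counts in all 3 glands. With at least 50 counts in 1 gland and at most 3 in each of the others, there were 6 such genes in gland 1, 14 in gland 2 and 1 in gland 3. Of the 14 in gland 2, 7 are in the muscle lists, among them cardiac and slow troponin Tnnc1 with 2, 328 and 0 counts in glands 1, 2 and 3, the muscle LIM protein Csrp3 with 0, 240 and 2, and sarcolipin (Sln), a brake on the calcium pump, with 0, 75 and 0. Smtnl1, a smoothelin-like protein outside the lists, had 0, 126 and 2.

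Of the 6 in gland 1, 3 are immunoglobulin variable segments (Igkv4-54 with 83, 0 and 2 counts, Igkv4-61 with 62, 1 and 3, and Ighv3-3 with 52, 3 and 0). The processed pseudogene Gm10233 had 158, 0 and 0 counts and Pgk1-rs7, a copy related to the glycolytic enzyme gene Pgk1, 109, 0 and 0. A copy that takes reads from a parent gene in 1 library was not tested. Gm29094 was the only such gene of gland 3, with 3, 3 and 65 counts. These genes were named after their values were seen.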
